A study of Mus musculus with 8 samples.

Results

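Matrix proteases, plasminogen activators and their inhibitors were examined in the mouse line SN4741 through 9 genes of 31053 in the deposited matrices: the proteases Mmp2 and Mmp14, the tissue inhibitors Timp1, Timp2 and Timp3, the plasminogen activators Plat and Plau, the receptor Plaur and the serpin Serpine2. They were chosen by role, with earlier results of these data known, and matched by gene symbol. Each symbol named 1 gene. SN4741 is an immortalised embryonic mouse line that carries a temperature-sensitive viral T antigen, and it is labelled as wild-type neural precursor cells. Single-cell RNA-seq was performed on 4 libraries from cells grown at 37 °C, the permissive temperature, in medium with 10% fetal bovine serum, and on 4 libraries from cells moved to 39 °C for 48 hours. At 39 °C the serum was also lowered to 0.5%, in a medium change made 24 hours after passage, so temperature and serum cannot be told apart. All libraries share the line, which the study describes as polyploid and unstable. Nothing in the labels says that replicates came from separate cultures, so the spread between these libraries may be technical. P-values between temperatures measure that spread, while those between cell-cycle phases can understate it.

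Matrix metalloproteinases cut collagens and other matrix proteins outside the cell. Mmp2 encodes a secreted gelatinase, and Mmp14 encodes a membrane-bound protease that activates the Mmp2 proenzyme with Timp2 as its partner. The tissue inhibitors of metalloproteinases, TIMPs, block these enzymes. Timp3 differs from the other TIMPs because it binds to the matrix. It is also known to block ADAM proteases. Tissue (Plat) and urokinase (Plau) plasminogen activators turn plasminogen into plasmin, Plaur encodes the urokinase receptor, and Serpine2 encodes protease nexin-1, a secreted inhibitor of thrombin and of both activators. In the nervous system these enzymes and inhibitors are known for their parts in cell migration and neurite growth.

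The 4 members whose levels moved most with temperature are shown by their promoters, 250 bases before to 50 bases after the start of the transcript, from RefSeq (GRCm38.p6). Promoters were given for 6 of the 9 members (Mmp14, Timp1, Timp2, Timp3, Plaur and Serpine2). Serpine2 lies on the minus strand at chr1:79858616-79858915, Timp3 on the plus strand at chr10:86300162-86300461, Timp2 on the minus strand at chr11:118355362-118355661, and Timp1 on the plus strand at chrX:20869916-20870215. Capitals mark matches to GGGCGG, the GC box, and GGAATG, a TEAD motif, or to their reverse complements.
Serpine2: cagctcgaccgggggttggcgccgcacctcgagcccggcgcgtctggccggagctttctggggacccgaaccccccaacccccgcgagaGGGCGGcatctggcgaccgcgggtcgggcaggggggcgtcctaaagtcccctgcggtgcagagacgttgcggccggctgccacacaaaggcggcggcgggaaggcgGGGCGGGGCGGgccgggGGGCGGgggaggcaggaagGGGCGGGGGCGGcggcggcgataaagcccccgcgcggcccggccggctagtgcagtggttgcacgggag
Timp3: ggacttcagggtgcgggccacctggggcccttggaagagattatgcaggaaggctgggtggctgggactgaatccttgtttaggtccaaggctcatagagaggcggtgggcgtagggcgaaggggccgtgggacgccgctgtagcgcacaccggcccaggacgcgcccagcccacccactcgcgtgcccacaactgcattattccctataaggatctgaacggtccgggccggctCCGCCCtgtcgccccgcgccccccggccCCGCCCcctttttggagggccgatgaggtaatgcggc
Timp2: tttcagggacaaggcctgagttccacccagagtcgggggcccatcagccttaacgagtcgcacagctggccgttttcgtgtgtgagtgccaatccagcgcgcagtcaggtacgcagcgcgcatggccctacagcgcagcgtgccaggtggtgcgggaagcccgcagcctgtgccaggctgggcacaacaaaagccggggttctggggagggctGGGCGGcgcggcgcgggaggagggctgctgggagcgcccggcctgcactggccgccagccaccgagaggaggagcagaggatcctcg
Timp1: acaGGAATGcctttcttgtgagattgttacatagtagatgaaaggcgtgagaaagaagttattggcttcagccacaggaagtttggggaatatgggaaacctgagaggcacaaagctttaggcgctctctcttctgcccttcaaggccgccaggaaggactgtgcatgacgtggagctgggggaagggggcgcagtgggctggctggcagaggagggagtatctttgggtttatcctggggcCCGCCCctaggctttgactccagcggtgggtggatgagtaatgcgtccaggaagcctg
A GC box was in all 6 promoters, against 35.7% of 32851 mouse promoters of the same length searched on both strands. Serpine2 held 6 matches, some side by side, while Timp2 and Timp1 each held 1. The TEAD motif was in Timp1 alone, at -247 from the start, and in 14.7% of all promoters. The AP-1 motif TGANTCA was in Plaur alone, as TGACTCA at -69, and in 7.81% of all promoters, while TATAAA was in none of the 6 and in 13.6% of all promoters. These are matches of letters and do not show that a factor binds.

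In the GENCODE M21 annotation (GRCm38) all 9 members are protein-coding genes. Mmp2 lies at chr8:92827291-92853420 and Plat, on the same chromosome, at chr8:22757727-22782844. Mmp14 lies at chr14:54431612-54445364 and Plau at chr14:20836660-20843385, both on the plus strand. Timp1 spans chrX:20870166-20874735, Timp2 chr11:118301069-118355740 and Timp3 chr10:86300372-86349506, so the 3 inhibitors are on different chromosomes. Plaur is at chr7:24462484-24475968 and Serpine2 at chr1:79794197-79861180. The promoter windows of Serpine2 and Timp2 shown above lie inside the spans of these genes. The starts used for these windows thus differ from the outer starts in the GENCODE annotation. The annotation places Timp1 and Timp3 within the synapsin genes Syn1 and Syn3 on the opposite strand, and Timp2 holds the small gene Cep295nl on the same strand. Whether counting used strand is not given in the sources used here, so reads of these overlapping genes may not be fully separated. All 3 neighbours are counted as genes of their own in the matrices.

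After filtering, 18351 of 19125 cells remained, 8550 at 37 °C and 9801 at 39 °C, with 985 to 3494 cells and 17166686 to 29633818 UMIs (unique molecular identifiers, 1 per captured transcript) per library. The library with the fewest cells, 39 °C replicate 1, had the highest median depth, 16665 UMIs per cell, against 6676 to 9886 in the other 39 °C libraries. Seurat assigned 20.6% to 28.7% of cells to G1 at 37 °C and 82.5% to 85.4% at 39 °C. Of 8 neural precursor markers only Nes, the intermediate filament nestin, and Sox2 had more than 10 UMIs in all libraries of either temperature, and Hes5 was at 0. The summed level of that list was 486 to 595 CPM (UMIs per 1000000) at 37 °C and 178 to 196 at 39 °C, which followed Nes (462 and 110 CPM pooled over libraries), while Sox2 was higher at 39 °C (54.8 and 77.1 CPM). The 10 mesenchymal markers, led by Col1a1 and Col1a2, summed to 2017 to 2096 CPM and 1099 to 1128 CPM, although Twist1 was higher at 39 °C (59.9 and 84.5 CPM pooled). The 6 neuronal markers, with Dcx at 0, summed to 164 to 193 CPM and 79.3 to 97.7 CPM. Endothelial markers summed to at most 1.17 CPM, with Cdh5 and Cldn5 at 0, and the macrophage list to 16.1 to 19.2 CPM at 37 °C and 28.1 to 36.5 CPM at 39 °C, nearly all from Cd68, with 3 and 5 UMIs of Ptprc at 37 °C and 39 °C. The part of these marker shifts in the results was not tested.

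To determine how the members respond to the shift, UMIs were summed per library and tested across all 15810 genes with edgeR. At 39 °C, 2 members rose (Serpine2 and Timp3) and 5 fell (Timp1, Timp2, Plaur, Plau and Mmp14), while Plat and Mmp2 did not pass. A gene passed at a Benjamini-Hochberg adjusted p under 0.05, as did 62% of all genes tested, 31.5% higher and 30.5% lower, a background against which 7 of 9 says little about the members. The size rule of the study asks for an adjusted p under 0.01 with a change of more than 1.5 log2 units, which 5.83% of genes met and no member did. The members' median log2 fold change was -0.13, against 0.02 over all genes. For 5 members the 2 groups of 4 libraries did not overlap, as for 56.7% of all genes.

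**Figure D1:**
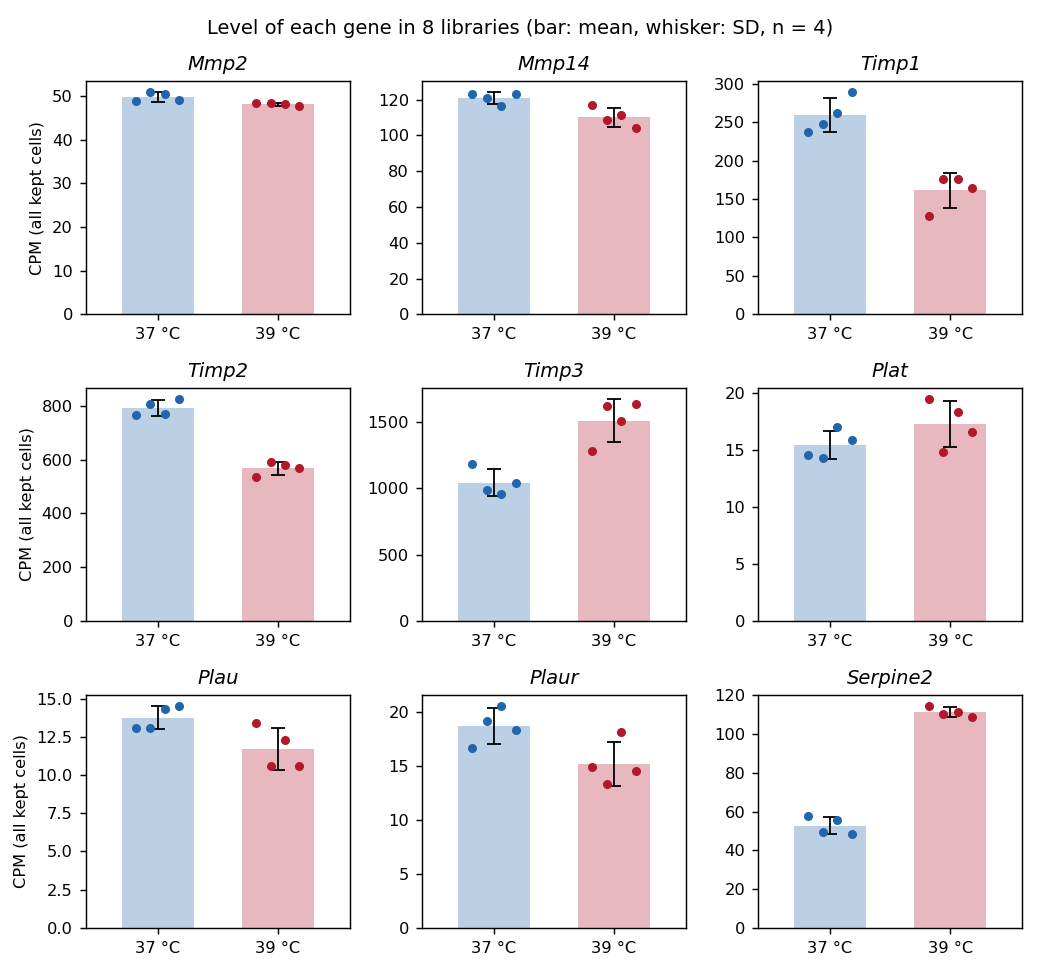
CPM of each member in the summed cells of each library (vertical axes, each from 0), with 37 °C in blue and 39 °C in red. Points are libraries, bars the means and whiskers the SD (n = 4). Serpine2 and Timp3 sit higher at 39 °C, Timp1 and Timp2 lower, and Plat, Plau, Plaur and Mmp14 overlap.

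Among the metalloproteinase inhibitors the direction was not shared. Timp1 had 238, 248, 262 and 289 CPM in the 37 °C libraries and 128, 176, 176 and 164 CPM in the 39 °C libraries. The groups did not overlap, and 39 °C replicate 1 was the lowest of all. Timp1 fell by 0.68 on the log2 scale (SE 0.081, adjusted p = 4.67e-07, edgeR), from 259 ± 22.4 to 161 ± 22.7 CPM (SD, n = 4), and by 0.60 without 39 °C replicate 1.

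Timp2, the partner of Mmp14 at the cell surface, had 765, 805, 768 and 826 CPM at 37 °C and 535, 592, 578 and 568 CPM at 39 °C. Every 39 °C library was below every 37 °C library. It fell by 0.48 on the log2 scale (SE 0.052, adjusted p = 1.52e-07, edgeR). Timp3, the matrix-bound inhibitor, went the other way. It had 1184, 984, 959 and 1040 CPM at 37 °C and 1278, 1619, 1508 and 1633 CPM at 39 °C. The ranges came near each other only between 37 °C replicate 1 and 39 °C replicate 1. Its log2 fold change was 0.53 (SE 0.078, adjusted p = 6.39e-06, edgeR), a mean of 1042 ± 100.5 CPM against 1509 ± 164 CPM (SD, n = 4).

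Serpine2, the inhibitor of the plasminogen activators, changed most of the 9. Its levels were 57.6, 49.5, 55.6 and 48.7 CPM at 37 °C and 115, 111, 111 and 109 CPM at 39 °C. The lowest 39 °C library was far above the highest 37 °C library. The log2 fold change was 1.07 (SE 0.054, adjusted p = 2.10e-12, edgeR), 2.10 times the 37 °C level.

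The activators and the receptor were the lowest in counts, and their groups overlapped. Plau, urokinase, had 13.1, 13.1, 14.3 and 14.5 CPM at 37 °C and 13.4, 10.6, 12.3 and 10.6 CPM at 39 °C. The groups overlapped through 39 °C replicate 1. It fell by 0.24 on the log2 scale (SE 0.077, adjusted p = 0.00949, edgeR), a call lost when each library was cut to 985 cells (-0.13, adjusted p = 0.252). Plaur fell by 0.29 (SE 0.083, adjusted p = 0.00496, edgeR), from 16.7 to 20.6 CPM at 37 °C to 13.4 to 18.1 CPM at 39 °C, ranges that also overlap. Plat, tissue plasminogen activator, had 14.3 to 17.1 CPM at 37 °C and 14.9 to 19.5 CPM at 39 °C. Its log2 fold change of 0.15 (SE 0.078) did not pass (adjusted p = 0.0936, edgeR), but did without 37 °C replicate 3 (0.20, adjusted p = 0.0483), without 39 °C replicate 2 (0.22, adjusted p = 0.0163) and with equal cells per library (0.21, adjusted p = 0.045).

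The proteases themselves moved little. Mmp2 had 48.7, 50.8, 50.4 and 49.0 CPM at 37 °C and 48.5, 48.3, 48.0 and 47.6 CPM at 39 °C. The groups did not overlap, but they were so near that the log2 fold change of -0.05 (SE 0.042) did not pass (adjusted p = 0.337, edgeR). Mmp14 had 123, 121, 116 and 123 CPM at 37 °C and 117, 108, 111 and 104 CPM at 39 °C. Only 39 °C replicate 1 and 37 °C replicate 3 overlapped. It fell by 0.13 (SE 0.047, adjusted p = 0.0171, edgeR), a call lost with library totals in place of TMM factors (-0.10, adjusted p = 0.0631), without 39 °C replicate 2 (-0.13, adjusted p = 0.0507) and when 39 °C replicate 4 was left out (-0.12, adjusted p = 0.0552).

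Since G1 cells made up most of the 39 °C libraries and few of the 37 °C ones, the comparison was repeated within G1 cells. In this fit of 14712 genes 1 member rose (Serpine2), 4 fell (Timp2, Timp1, Mmp2 and Mmp14) and 4 did not pass, where 47.1% of all genes passed (24.8% higher and 22.4% lower). The groups did not overlap for 4 members (Serpine2, Timp1, Timp2 and Mmp2), as for 44% of genes. No member met the size rule of the study in G1, where 2.54% of genes did. The median of the members was -0.18 against 0.04 over all genes.

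Timp3 was the member whose change differed most between all cells and G1 cells. In G1 cells, on 1 scale for all phases and libraries, it had 1764, 1572, 1450 and 1618 CPM at 37 °C and 1384, 1749, 1638 and 1778 CPM at 39 °C. These ranges overlap, and both the lowest and the highest library were at 39 °C. The log2 fold change in G1 was 0.07 (SE 0.074, adjusted p = 0.469, edgeR). In S cells it was -0.17 (SE 0.083, adjusted p = 0.0928), and in G2M cells -0.20 (SE 0.117, adjusted p = 0.205), both chosen after the data were seen. In no assigned phase did Timp3 rise in a way that passed. This depends on how phases are scored: with scores made within each library, 54.1% to 58.8% of 39 °C cells and 38.1% to 42.5% of 37 °C cells were in G1, and the change in G1 was 0.37 (adjusted p = 0.000349).

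Serpine2 kept a rise within each phase. In G1 it had 75.0, 71.5, 82.4 and 73.1 CPM at 37 °C and 121, 121, 122 and 120 CPM at 39 °C. The 39 °C libraries were nearly level, all above the 37 °C libraries. The log2 fold change was 0.72 in G1 (SE 0.054, adjusted p = 2.07e-10), 0.37 in S (SE 0.104, adjusted p = 0.00405) and 0.41 in G2M (SE 0.105, adjusted p = 0.00253, all edgeR), each below the 1.07 of all cells. In S cells the groups overlapped.

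Timp2 fell in all 3 phases, by 0.58 in G1 (SE 0.054, adjusted p = 6.10e-09), by 0.70 in S (SE 0.061, adjusted p = 7.30e-11) and by 0.88 in G2M (SE 0.092, adjusted p = 1.17e-09, all edgeR). In each phase the 4 libraries at 39 °C were below the 4 at 37 °C. Timp1 fell by 0.41 in G1 (SE 0.078, adjusted p = 0.000128), by 0.18 in S (SE 0.072, adjusted p = 0.0470), where the groups overlapped, and by 0.95 in G2M (SE 0.122, adjusted p = 1.03e-07, all edgeR). In S cells 1 member rose and 2 fell, where 43.5% of genes passed (20.1% higher and 23.4% lower), and in G2M cells 1 rose and 4 fell, where 29.7% passed (13.2% higher and 16.5% lower).

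Mmp2, which did not pass in the sums of all cells, fell by 0.33 within G1 (SE 0.067, adjusted p = 0.000297, edgeR). Its G1 levels were 56.5 to 74.5 CPM at 37 °C and 49.6 to 49.8 CPM at 39 °C. It fell by 0.35 in G2M cells (SE 0.122, adjusted p = 0.0268), and in S cells the change of -0.16 did not pass (adjusted p = 0.0969). Mmp14 fell by 0.18 in G1 (SE 0.059, adjusted p = 0.0136, edgeR), but leaving out 37 °C replicate 1 ended the call (-0.13, adjusted p = 0.0683). Plat, Plau and Plaur did not pass in G1 (0.11, -0.10 and -0.21), although Plaur did without 39 °C replicate 3 (-0.32, adjusted p = 0.00959) and with phase scores within each library (-0.30, adjusted p = 0.0120).

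**Figure D2:**
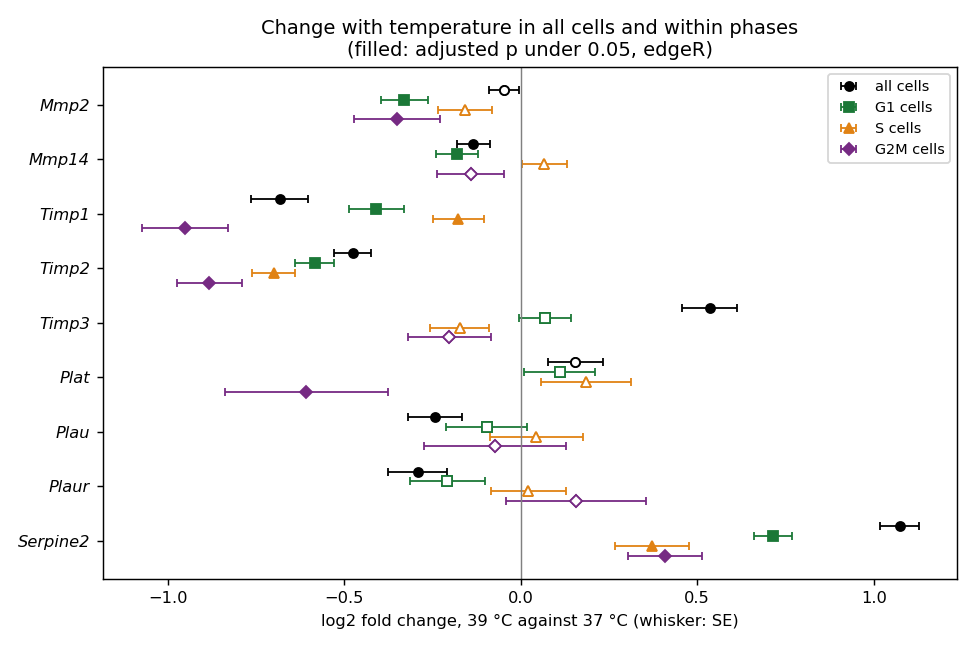
Log2 fold change of each member at 39 °C against 37 °C (horizontal axis, whiskers are SE) in all cells, G1, S and G2M cells. Filled symbols passed at an adjusted p under 0.05. Timp3 stands at 0.53 in all cells and between -0.20 and 0.07 within phases, while Serpine2 stays above 0 and Timp1 and Timp2 below 0 in each.

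Levels across the cell cycle were compared between G2M and G1 cells of the same libraries. At 37 °C, 1 member was higher in G2M (Timp1) and 4 were lower (Timp3, Serpine2, Mmp2 and Timp2), where 44.4% of 14230 genes passed, 23.2% higher and 21.3% lower. Timp3 had 1764, 1572, 1450 and 1618 CPM in G1 and 902, 630, 653 and 760 CPM in G2M of the same libraries. It was lower in G2M in each of the 4, with a log2 ratio of -1.10 (SE 0.020, edgeR), and its S cells lay between, at 1081 ± 47.5 CPM (SD, n = 4). The p-value was too small for the number format and is not given. Leaving out 1 library gave -1.16 to -1.04, which is wide beside the SE of 0.020. SE and p-value thus understate the spread between libraries.

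Timp1 at 37 °C had 198, 205, 193 and 226 CPM in G1 and 225, 233, 257 and 286 CPM in G2M, higher in each library. The log2 fold change was 0.30 (SE 0.031, adjusted p = 4.84e-21, edgeR), and S cells were highest, at 307 ± 17.8 CPM (SD, n = 4). Serpine2 (log2 fold change -0.55, SE 0.052, adjusted p = 5.04e-25), Mmp2 (-0.43, SE 0.055, adjusted p = 9.18e-14) and Timp2 (-0.34, SE 0.022, adjusted p = 1.27e-54, all edgeR) were lower in G2M, each in 4 of 4 libraries. Mmp14 did not differ in a way that passed (log2 fold change 0.0010, SE 0.039, adjusted p = 0.987), nor did Plat, Plau or Plaur.

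At 39 °C there were only 29 to 187 G2M cells per library, the fewest in replicate 1. Here 6 members were lower in G2M and 0 were higher (edgeR), also 0 at an unadjusted p under 0.05 and 0 by DESeq2, where 22.7% of 14436 genes passed, 10.7% higher and 12% lower. Timp3 had 1384, 1749, 1638 and 1778 CPM in G1 and 423, 578, 677 and 823 CPM in G2M, a log2 fold change of -1.39 (SE 0.052, adjusted p = 7.42e-154, edgeR). Leaving out 1 library gave -1.51 to -1.32 for Timp3, which is wide beside this SE. Timp2 (-0.64, SE 0.060, adjusted p = 1.85e-25) and Timp1 (-0.28, SE 0.080, adjusted p = 0.00327, both edgeR) were also lower in 4 of 4 libraries. The fall of Timp1 was largest in replicate 1, and replicate 3 was nearly level (164 and 163 CPM). Without replicate 1 Timp1 stood at -0.19 (adjusted p = 0.0478, edgeR). For Serpine2 (-0.85, adjusted p = 1.35e-17), Plat (-0.76, adjusted p = 0.00268) and Mmp2 (-0.44, adjusted p = 0.00390) the call was lost with phase scores within each library, where Serpine2 stood at 0.06, Plat at -0.18 and Mmp2 at -0.09. DESeq2 did not pass Timp1 (adjusted p = 0.111), Plat (adjusted p = 0.0821) or Mmp2 (adjusted p = 0.0645).

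The G2M step of Timp1 had opposite signs at the 2 temperatures, although at 39 °C it was nearly level in replicate 3. A test of the difference between temperatures, added after the data were seen, gave -0.57 on the log2 scale (39 °C minus 37 °C, SE 0.081, adjusted p = 2.11e-08, edgeR). Leaving out 1 library gave -0.70 to -0.53, which is wide beside that SE, so the p-value understates the spread between libraries. Of 14378 genes 7.69% passed this test (2.46% higher and 5.22% lower). In all 5 members passed it, each with a negative difference. At 39 °C Timp1 had 119, 165, 164 and 154 CPM in G1, 271 ± 34.1 CPM in S (SD, n = 4), and 52.8, 134, 163 and 126 CPM in G2M. Its S cells were thus highest at either temperature, and only the mean G2M level changed place relative to G1.

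**Figure D3:**
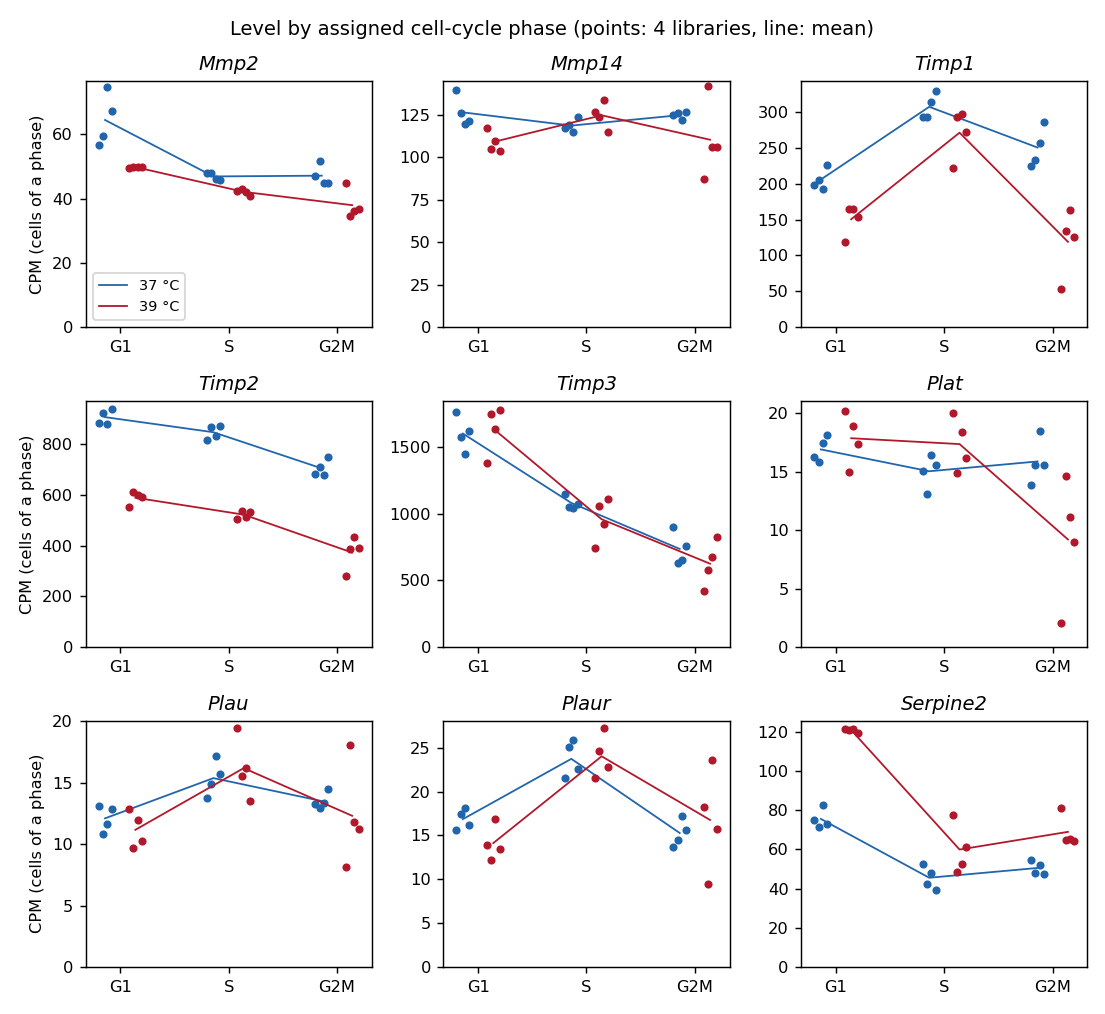
CPM of each member in cells assigned to G1, S and G2M (horizontal axis), on 1 scale for all 24 sums, with 37 °C in blue and 39 °C in red. Points are libraries and lines join the means. Timp3 falls from G1 to G2M at each temperature, from 1601 to 736 CPM at 37 °C and from 1637 to 625 CPM at 39 °C, while the 39 °C points of Timp2 lie below those of 37 °C in each phase.

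Single cells showed how widely each gene was spread. Each cell was thinned to 5000 UMIs, which left out 668 cells at 37 °C and 1668 at 39 °C with fewer, because depth differed between libraries. No other cell type is known in these cultures, so no cell type that should lack the genes was there to measure free RNA, and low shares may hold such background.

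Timp1 had a UMI in 56.4%, 57.7%, 60.9% and 64.6% of cells at 37 °C and in 36.2%, 43.6%, 40.6% and 44.9% at 39 °C. The groups did not overlap. Unthinned shares were 79.0% and 57.2% on average. Among G1 cells alone the thinned means were 51.9% and 40.4%. Timp3 had a UMI in 84.8% to 87.8% of cells at 37 °C and in 92.8% to 94.2% at 39 °C, and in 93.2% and 94.9% on average among G1 cells. Serpine2 was found in 19.0% to 21.2% of cells at 37 °C and in 33.4% to 35.2% at 39 °C, so more cells had a UMI of it and its mean was 0.260 and 0.551 UMIs per thinned cell. Among G1 cells the means for Serpine2 were nearer, 27.8% and 36.6%. Timp2 was in most cells at each temperature (94.9% and 89.8% on average).

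Mmp14 was in 43.5% and 40.3% of thinned cells and Mmp2 in 18.7% and 18.3%. Among G1 cells both gaps were wider, 44.6% and 40.2% for Mmp14 and 23.0% and 19.2% for Mmp2. The activators and the receptor were sparse: Plat had a UMI in 7.02% and 8.09%, Plau in 6.54% and 5.37%, and Plaur in 8.21% and 6.85%. Poisson counting at the same mean gives 7.13% and 8.44% for Plat, 6.65% and 5.56% for Plau, and 8.48% and 7.28% for Plaur, all slightly above the measured shares. The variance over mean at 39 °C was 1.12 ± 0.0210 for Plaur, 1.09 ± 0.0322 for Plat and 1.07 ± 0.0348 for Plau (SD, n = 4), so Plaur and Plat were somewhat more uneven there than Poisson counting, where the value is 1.

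**Figure D4:**
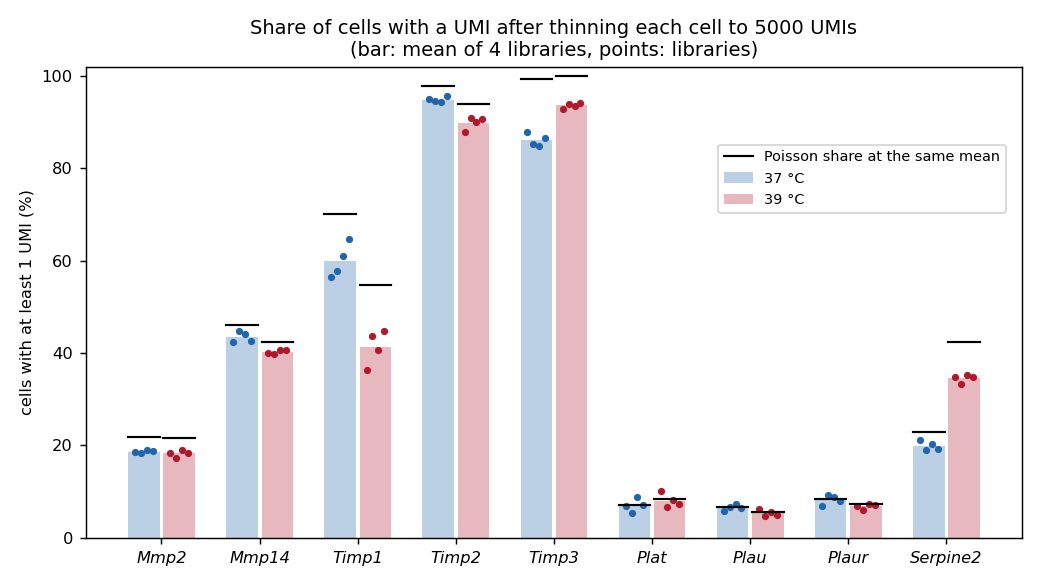
Share of cells with at least 1 UMI (vertical axis, percent) for each member after thinning to 5000 UMIs, with 37 °C in blue and 39 °C in red. Bars are means of 4 libraries, points are libraries, and black lines mark the share Poisson counting would give at the same mean. The lines stand well above the bars for Timp1, Timp3 and, at 39 °C, Serpine2, and nearly meet them for Plat, Plau and Plaur.

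Timp3 had the highest variance over mean of the members, a measure that grows with the level. Its variance over mean was 6.71 ± 0.612 at 37 °C and 6.32 ± 0.897 at 39 °C (SD, n = 4), where Poisson counting gives 1. Up to 81 of 5000 UMIs in a cell were Timp3 in this random thinning. In a separate thinning of G1 cells at 37 °C the highest count was 88. Beside the 157 to 188 genes per library whose thinned level was within 2 times its own, Timp3 ranked 1 in each 37 °C library and 3 to 5 among 116 to 132 genes at 39 °C, where the median gene had 1.44 to 1.75. The 10% of cells with the most Timp3 held 36.6% of its UMIs at 37 °C and 31.4% at 39 °C. Within G1 cells alone the variance over mean was 8.17 and 6.33, within S cells 5.08 and 4.20, and within G2M cells 5.34 and 4.38. It thus stayed far above 1 within each phase, but the mean differed as well, from 7.26 UMIs per G1 cell to 3.33 per G2M cell at 37 °C, and variance over mean grows with the mean.

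Timp1 was spread more unevenly at 39 °C, with a variance over mean of 1.86 ± 0.0804 at 37 °C and 2.62 ± 0.185 at 39 °C, although its level was lower there. The top 10% of cells held 37.1% of its UMIs at 37 °C, close to the share for Timp3, and 50.4% at 39 °C. Among 1548 to 2240 genes of like level it ranked 14 to 35 at 39 °C. In S cells at 39 °C its variance over mean reached 3.85 ± 0.770, and 1 thinned cell had 26 UMIs. Timp2, at 1.62 and 1.57, was spread more evenly at each temperature.

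Pearson correlations of log-scaled counts were computed across the cells of each library for the 36 pairs of members. Cells of a library share depth and phase, and sparse counts lower r, so these are descriptions. The highest was Timp2 with Timp3, with a median r of 0.26 over 8 libraries (0.21 to 0.30) and 0.25 within G1 cells, although their sums moved in opposite directions with temperature. Timp1 with Timp2 followed at 0.16 (0.12 to 0.25) and Timp1 with Plaur at 0.14 (0.10 to 0.27). Timp1 with Timp3 was near 0, from -0.09 to -0.03 in the 37 °C libraries and from 0.0010 to 0.06 in the 39 °C libraries. Serpine2 had 0.12 with Mmp2 (0.07 to 0.17) and -0.07 with Mmp14 (-0.18 to -0.03). The remaining pairs had medians below 0.1, weak in counts this sparse.

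**Figure D5:**
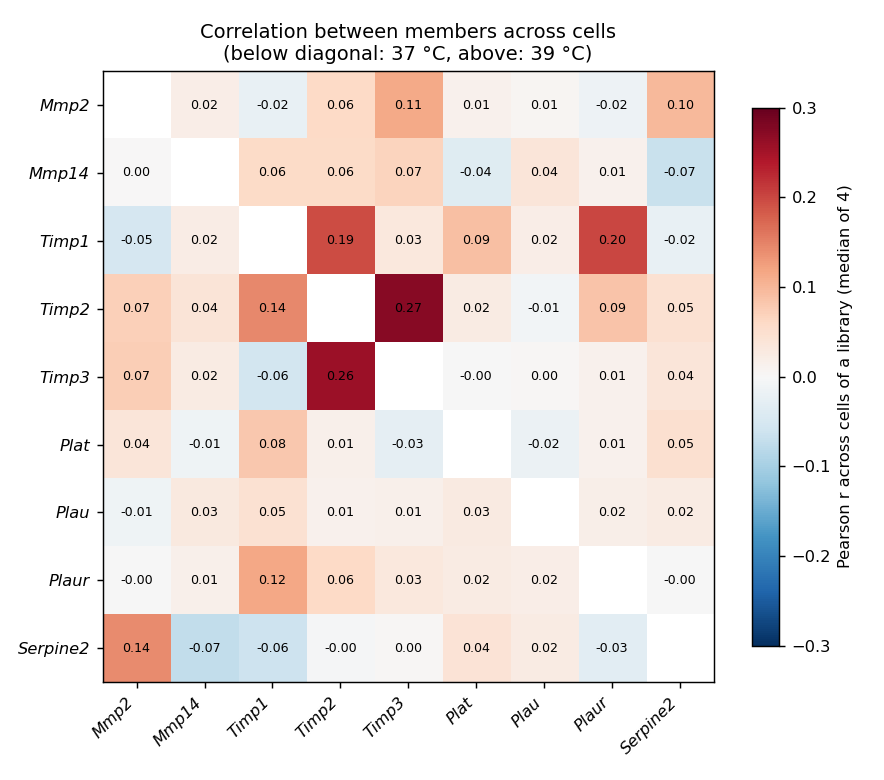
Pearson r between members across the cells of a library, as the median of 4 libraries (colour from -0.3 to 0.3), with 37 °C below the diagonal and 39 °C above. Timp2 with Timp3 is the darkest pair at each temperature (0.26 and 0.27), followed at 39 °C by Timp1 with Plaur (0.20) and Timp1 with Timp2 (0.19).

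The genes most like each member across cells were taken as the 3 with the highest median r over the 8 libraries, among 2899 genes of at least 50 CPM at each temperature. For Timp3 these were Ccdc80 (0.40), Col8a1 (0.38) and Tspan8 (0.35), where Ccdc80 encodes a secreted matrix-associated protein and Col8a1 a short-chain collagen. For Timp1 they were Lgals1 (0.39), Anxa2 (0.35) and S100a6 (0.33), a galectin, an annexin and a calcium-binding protein. For Timp2 they were the matrix protein gene Sparc (0.36), the collagen gene Col1a1 (0.33) and the tropomyosin gene Tpm1 (0.32). Mmp2 was most like Col8a1 (0.22), Ass1 (0.19) and Inhbb (0.17), so Col8a1 was among the nearest of both Mmp2 and Timp3.

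Serpine2 was nearest to the ribosomal protein genes Rpl19 and Rpl28 (both 0.22). Plaur was nearest to Tnfrsf12a, the TWEAK receptor gene, Nes and Eif5a (0.14 to 0.15), and Mmp14 to Col5a2, Myl6 and Nedd8 (0.14 to 0.15). For Plat (Prkg2, Hmga2, Spp1) and Plau (Myh9, Hnrnpa3, Supt16) no r reached 0.1.

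Around the members, 67 of 86 listed genes of matrix proteolysis had enough counts to test. In all cells 19 rose, 27 fell and 21 did not pass, where 31.5% of all genes rose and 30.5% fell, so a share near that background passed. Their median log2 fold change was -0.06, against 0.02 over all genes, and 8 met the study's size rule, which 5.83% of all genes met, 6 of the 8 under 10 CPM at each temperature. The counts of the groups that follow are small and stand beside the same background. The other metalloproteinases and inhibitors had 5 that rose and 2 that fell of 12. Mmp15, a membrane-bound relative of Mmp14, rose by 1.83 on the log2 scale (adjusted p = 9.85e-15, edgeR), from 17.0 ± 1.73 to 60.6 ± 3.35 CPM (SD, n = 4). Mmp11, stromelysin-3, rose by 0.41.

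Of 17 ADAM and ADAMTS genes 5 rose and 6 fell. Adam10, a sheddase of Notch and other surface proteins, fell by 0.27 on the log2 scale, while Adamts7 rose by 0.56 and Adam15 by 0.30. The procollagen group had 3 that rose and 2 that fell of 7. Its protease Bmp1, procollagen C-proteinase, rose by 0.56, and of the enhancers of that enzyme Pcolce fell by 0.73, from 490 ± 33.9 to 296 ± 15.4 CPM (SD, n = 4), and Pcolce2 rose by 0.58.

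Of 10 tested plasminogen and clotting partners 3 rose and 6 fell. Anxa2, part of a surface receptor for plasminogen and Plat, fell by 1.12, from 1048 ± 62.6 to 481 ± 25.8 CPM (SD, n = 4). F2r, the thrombin receptor, fell by 1.25. Lrp1, the endocytic receptor that clears protease and serpin complexes, rose by 0.94, from 151 ± 6.57 to 290 ± 12.6 CPM (SD, n = 4). Plg, which encodes plasminogen, had too few counts to test.

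The serpins and other inhibitors had 1 that rose and 8 that fell of 13, with a median of -0.71, where 31.5% of all genes rose and 30.5% fell. Several of the 13 were under 1 CPM at both temperatures, among them the 1 that rose (0.061 and 0.34 CPM). The highest, at 747 and 811 CPM, did not pass (0.12, adjusted p = 0.0599, edgeR), and the next, at 455 and 394 CPM, fell by 0.21. Serpinb9, an inhibitor of granzyme B, fell by 1.09 and Serpinb8 by 0.47. Among 8 cathepsins and other proteases 2 rose and 3 fell. The secreted serine proteases Htra1 and Prss23 fell by 1.66 and 1.04, and the lysosomal protease Ctsd rose by 0.62. Within G1 cells the pathway genes named here passed in the same direction, except Adam15 (0.07, adjusted p = 0.355) and Serpinb8 (-0.06, adjusted p = 0.647), which did not pass.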

How the data were processed

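Gene members and lists were chosen with earlier results of these data known. Per the labels and the study's methods, single cells were captured by the Chromium 3' V3 chemistry. Reads were aligned by the authors to mm10 (Cell Ranger 3.0.1), and the authors deposited raw UMI counts per gene and cell for 8 libraries. Cells with over 15% mitochondrial UMIs, under 200 genes or over 6000 genes were left out. No doublet caller was run beyond the upper limit. Libraries shared at most 5 barcodes per pair and differed by more than sampling error (chi-square divided by its degrees of freedom, 2.85 to 21.4). Phases came from Seurat 5.3.0 (CellCycleScoring, all cells together, 42 of 43 S and 52 of 54 G2M genes found, no member among them).

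Sums of UMIs per library entered edgeR 4.0.16 in R 4.3.3 (TMM, quasi-likelihood test, mean of at least 1 count, Benjamini-Hochberg over all genes tested). Phase comparisons used library as a block. Each standard error is the fold change over the root of F. In phase comparisons, leaving out 1 library can move a fold change by more than its SE. The p-value then understates the spread between libraries. CPM of members and pathway genes are of tested genes with TMM-scaled totals, each fit having its own scale. CPM of the cell type markers are of all UMIs, without TMM factors. The 3' tags do not allow levels to be compared between genes. DESeq2 1.42.0, other factors and filters, equal cells and leaving out libraries were alternatives. On simulated counts 100 genes were changed by 1 on the log2 scale. Between temperatures 100 were recovered for all cells (15595 genes, 10 false calls), 98 for G1 (14514 genes, 5 false calls), 95 for S (13558 genes, 10 false calls) and 88 for G2M (13593 genes, 7 false calls). For G2M against G1, 97 were recovered at 37 °C (14029 genes, 4 false calls) and 72 at 39 °C (14267 genes, 13 false calls). Only genes of higher mean count were changed, with the same spread set for every gene and no library effects. Recovery of smaller changes or of sparse genes was not tested. Named pathway genes are, per group, up to 3 that passed with the largest fold change and at least 10 CPM at one temperature. A few genes these rules would name are not reported here.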

Additional observations from a re-analysis of the deposited data

Results flagged for a closer look

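The difference between G2M and G1 cells itself differed between temperatures for 5 members, by an interaction term in edgeR on the sums of G1 and G2M cells with library as a block (adjusted over 14378 genes). The log2 difference, 39 °C minus 37 °C, was -0.57 for Timp1 (adjusted p = 2.11e-08), -0.29 for Timp2 (adjusted p = 6.60e-05), -0.27 for Timp3 (adjusted p = 0.000316), -0.70 for Plat (adjusted p = 0.0460) and -0.31 for Serpine2 (adjusted p = 0.0449). With the main phase scores, levels of Timp2, Timp3 and Serpine2 were lower in G2M at each temperature and more so at 39 °C. With phase scores within each library Serpine2 at 39 °C stood at 0.057, so it was not lower there. Over all alternatives the G2M against G1 value of Timp3 ranged from -1.51 to -0.82 at 39 °C. At 37 °C it ranged from -1.16 to -1.03, so the ranges overlap. Plat had 2.03 to 14.7 CPM in G2M cells at 39 °C, from libraries with 29 to 187 such cells, and 13.9 to 18.5 CPM at 37 °C. The calls of Timp3, Plat and Serpine2 were each lost with library totals, filterByExpr or DESeq2, those of Plat and Serpine2 also with RLE factors, and leaving out single libraries of either temperature ended the call of Plat (highest adjusted p = 0.169) and of Serpine2 (highest adjusted p = 0.166). The difference was not run with phase scores made within each library. Its p-values, like those of the phase fits, can understate the spread between libraries. The phase assignment at 39 °C moves with the scoring, and its part in these differences was not tested.

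Each member's 4 values per temperature, in all cells and in G1 cells, were searched for a library far from the others. None of the 36 groups held one, where chance flags about 1 in 20.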

How the results depend on the processing

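In all cells no member changed direction under any alternative run, and Serpine2, Timp1, Timp2, Timp3 and Plaur kept their calls. Log2 fold changes ranged from 1.03 to 1.11 for Serpine2, -0.74 to -0.60 for Timp1, -0.51 to -0.44 for Timp2 and 0.49 to 0.60 for Timp3. Replicate numbers did not pair the libraries (correlations of deviations -0.03 to 0.05, and only replicate 4 was nearest to its own number). With the replicate block 2 members rose and 5 fell in all cells (9617 genes called) and 1 rose and 4 fell in G1, and no member's call changed.

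In G1 cells 2 members rose with phase scores within each library, and in S cells alone 2 fell. Against G1, the direction turned in S cells for Mmp14 (0.067), Timp3 (-0.17), Plau (0.044) and Plaur (0.022), and in G2M cells for Timp3 (-0.20), Plat (-0.61) and Plaur (0.16). G2M cells gave 4101 called genes against 6933. For G2M against G1, DESeq2 called 3712 genes at 37 °C against 6324, 2105 at 39 °C against 3281 and 458 for the difference between temperatures against 1105. At 39 °C 3 members were lower by DESeq2 and 3 with phase scores within each library, against 6. For the difference between temperatures, 3 members were lower with RLE factors, 2 with library totals, 2 with filterByExpr, 2 with DESeq2 and 3 to 5 leaving out 1 library, against 5. Timp1 and Timp2 passed in each of these. The causes were not tested.

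For G2M against G1 at 39 °C, Serpine2, which had passed at -0.85, turned to 0.057 with phase scores within each library. Values that had not passed also turned for G2M against G1. At 37 °C these were Mmp14 (-0.0019 with RLE factors, -0.038 with library totals, -0.0076 with filterByExpr, -0.023 to 0.052 leaving out 1 library) and Plat (0.031 with phase scores within each library). At 39 °C they were Mmp14 (-0.041) and Plaur (-0.16) with phase scores within each library, and leaving out 1 library Mmp14 (-0.093 to 0.13) and Plau (-0.059 to 0.34). For the difference they were Mmp2 (0.043 with RLE factors, 0.087 with library totals, 0.035 with filterByExpr, 0.050 with DESeq2, -0.12 to 0.047 leaving out 1 library), Mmp14 (-0.091 to 0.12) and Plau (-0.24 to 0.17), both leaving out 1 library. Depth limits Plat, Plau and Plaur, with 236 to 587 UMIs per library, and G2M cells at 39 °C, with 449856 to 1483712 UMIs.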
